A study of Mus musculus with 209 samples.

Results

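The libraries examined were splenic CD4 T cells, labelled T.4, taken 2 h after an intravenous injection of tumour necrosis factor alpha (TNFa). They were picked by their labels, as the 3 libraries after 5 µg of TNFa in 120 µL of phosphate-buffered saline (PBS) and the 5 libraries after 120 µL of PBS, which makes 8 of the 209 libraries of the series. The animals were C57Bl/6J mice, 5-8 week old when injected, in every group named here. The labels name no transgene, deletion or culture step in any group. About 1000 cells per library were sorted in successive rounds into lysis buffer for low-input RNA sequencing. Libraries after 5 µg of interleukin-1 beta (IL1b, 3 libraries) or interleukin-6 (IL6, 3 libraries) served as comparison, as did regulatory T cells (Treg; 5 PBS and 3 TNFa libraries) and CD8 T cells (labelled T.8; 4 PBS and 2 TNFa libraries). The tissue field of all 14 T.4 libraries reads peritoneal cavity while their titles carry the code for spleen, and the titles were taken as the guide here. Nothing in the labels ties a library to an animal, so the p-values measure the spread between these samples, which may be technical. Because the cytokine was given to the whole animal, an action of TNFa on the sorted cells and an action of other factors released in the animal cannot be told apart.

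TNFa is recognised by a widely expressed death-domain receptor, encoded by Tnfrsf1a, and by a second receptor without a death domain, encoded by Tnfrsf1b and prominent on T cells. Both recruit TRAF adaptors and ubiquitin ligases of the IAP family, which activate the IkB kinases. The kinases release NF-kB dimers from their IkB inhibitors, and NF-kB then induces its own inhibitors, so that the response limits itself. In T cells the pathway feeds survival, costimulation and adhesion. Given systemically, TNFa is also known to elicit other cytokines and glucocorticoid release.

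The 8 libraries held between 2937177 and 4702782 counts and between 18914 and 22172 genes with a count. Mitochondrial transcripts took 0.798 to 0.992% of counts after PBS and 0.973 to 1.22% after TNFa, and their part in the results was not tested. No pair of replicates was a repeat of 1 library: the chi-square per degree of freedom between replicates within the PBS and TNFa groups ran from 6.07 to 12.2. The 10 CD4 T cell markers summed to 7240 to 8010 CPM (counts per 1000000 counts of the scaled library) after PBS and to 5860 to 5950 CPM after TNFa. Of these 10, Cd40lg, Cd3g, Cd3d, Cd28, Lck and Trbc2 were lowered and none was raised; Cd4 itself stood at 774 to 933 CPM after PBS and at 794 to 820 CPM after TNFa. Of the CD8 T cell markers, Cd8a was at 0 to 0.244 CPM after PBS and at 0 in every TNFa library, while Cd8b1 stood at 18.1 to 37.8 CPM after PBS and at 25.5 to 32.1 CPM after TNFa. In bulk libraries, fewer cells of a type and less RNA per cell cannot be told apart.

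TNFa changed 811 of the 12358 genes tested in CD4 T cells (6.56%; adjusted p under 0.05 by edgeR's quasi-likelihood test with Benjamini-Hochberg adjustment). Of these, 445 were raised (3.6%) and 366 were lowered (2.96%). Both shares are the background for the counts on gene lists below. The rises reached further than the falls: 229 raised genes rose at least 2-fold and 74 at least 4-fold, against 87 and 13 lowered genes. The median log2 fold change was 1.01 among the raised genes, −0.74 among the lowered genes and −0.001 over all genes tested. An unadjusted p under 0.05 was reached by 2091 genes (16.9%). For 789 of the 811 genes the 3 TNFa libraries and the 5 PBS libraries did not overlap, as was true of 1768 genes in all (14.3%), 938 higher (7.59%) and 830 lower (6.72%) after TNFa. Leaving out 1 library moved the number of raised genes to between 329 and 436. The number of lowered genes was 224, 237 and 221 without the first, the second and the third TNFa library.

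**Figure D1:**
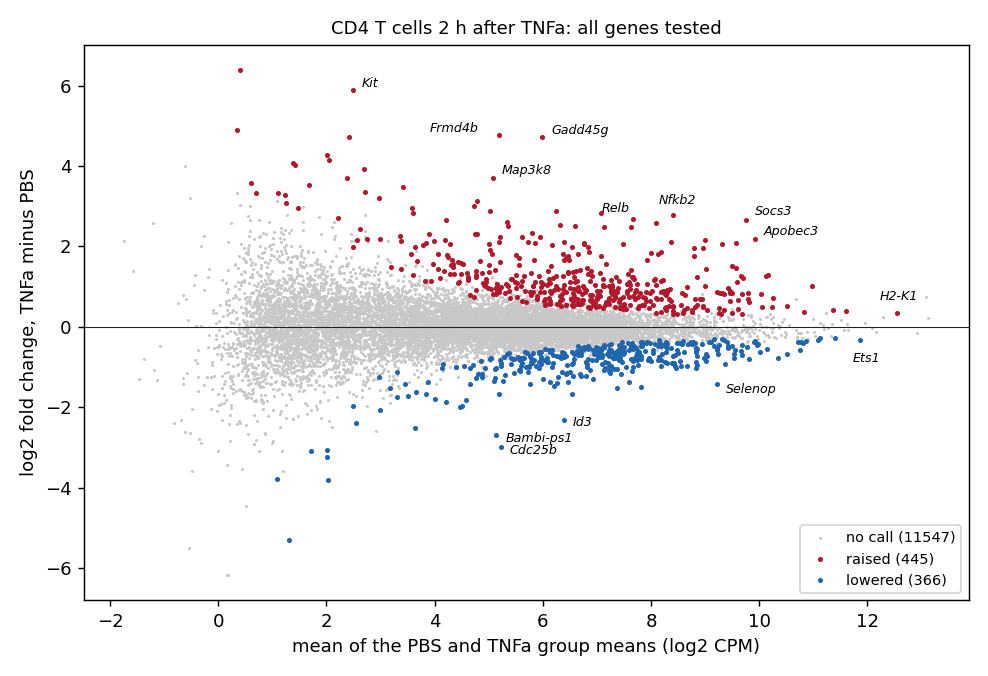
Log2 fold change after TNFa (vertical) against mean level in log2 CPM (horizontal) for the 12358 genes tested in CD4 T cells. Red points are the 445 raised genes, blue points the 366 lowered genes and grey points the 11547 genes with no call. Raised genes reach further from 0 than lowered genes at all but the lowest levels.

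Of the TNF receptors, Tnfrsf1b was raised and Tnfrsf1a had no call; the difference between them was not tested. Tnfrsf1b, the receptor prominent on T cells, stood at 55.0, 57.8, 88.0, 53.3 and 31.5 CPM in the 5 PBS libraries and at 139, 111 and 124 CPM in the 3 TNFa libraries. Every TNFa library lay above every PBS library, and the rise was 1.13 on the log2 scale (SE 0.21, adjusted p = 0.000932). Tnfrsf1a, the death-domain receptor, stood at 43.5, 54.3, 45.9, 62.7 and 61.9 CPM after PBS and at 63.8, 23.5 and 37.2 CPM after TNFa. Those groups overlapped (log2 fold change −0.36, SE 0.26, adjusted p = 0.565). Tnfrsf25, a death-domain receptor for the ligand TL1A that costimulates T cells, rose from 136 to 173 CPM over the PBS libraries to 331, 351 and 303 CPM (log2 fold change 1.07, SE 0.14, adjusted p = 1.69e-05). Tnf itself was low, at 12.6 to 20.1 CPM after PBS and 10.3, 12.9 and 21.9 CPM after TNFa, with overlapping groups and no call (adjusted p = 0.874). Of the lymphotoxin genes, Ltb stood at 965 to 1373 CPM after PBS and at 1218 to 1300 CPM after TNFa, with no call (adjusted p = 0.488). Lta was called as raised (log2 fold change 1.11, adjusted p = 0.0439), but the call was lost in 5 of the 8 fits that left out 1 library, with an adjusted p of up to 0.169. In all, 3 of the 6 ligand and receptor genes tested were raised and none was lowered.

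Among the 18 adaptors and proximal kinases tested, 4 were raised (22.2%) and 1 was lowered (5.56%), against 3.6% and 2.96% of all genes tested. Birc3, which encodes an IAP ubiquitin ligase that TRAF proteins bring to the receptor, stood at 125, 133, 139, 111 and 115 CPM after PBS and at 404, 460 and 443 CPM after TNFa. The groups were far apart and the rise was 1.80 on the log2 scale (SE 0.11, adjusted p = 9.45e-10). Its close relative Birc2 rose by 0.79 (adjusted p = 0.000933). Traf3, whose protein holds back the noncanonical NF-kB pathway, rose by 0.94 (adjusted p = 0.00315) and Traf1 by 0.54 (adjusted p = 0.00532). Traf2 stood at 117 to 142 CPM after PBS and at 133 to 178 CPM after TNFa, with no call (adjusted p = 0.36). Traf5, another adaptor, was called as lowered (log2 fold change −0.61, adjusted p = 0.0417), a call lost in 6 of the 8 fits that left out 1 library, with an adjusted p of up to 0.226.

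The NF-kB genes themselves were among the most strongly raised. Nfkb2, the precursor subunit of the noncanonical pathway, stood at 96.2, 82.3, 97.0, 56.0 and 98.0 CPM in the PBS libraries and at 662, 500 and 606 CPM in the TNFa libraries. Relb, its partner, stood at 56.4, 82.3, 99.5, 78.3 and 73.9 CPM and rose to 493, 416 and 488 CPM. Both genes were several fold higher in every TNFa library than in any PBS library, with log2 fold changes of 2.78 (SE 0.21, adjusted p = 1.28e-08) for Nfkb2 and 2.58 (SE 0.19, adjusted p = 1e-08) for Relb. The other subunits moved less: Rel rose by 1.02 (adjusted p = 7.11e-05) and Nfkb1 by 0.77 (adjusted p = 0.000809). Rela, the main activating subunit of the canonical pathway, stood at 177 to 229 CPM after PBS and at 245 to 279 CPM after TNFa without a call (log2 fold change 0.34, adjusted p = 0.0831). Thus 4 of 5 subunit genes were raised in edgeR's test and none was lowered. DESeq2 called all 5 as raised, Rela included, and the Rela groups did not overlap.

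Most genes of the IkB family rose with the subunits. Nfkbia, which encodes IkB alpha, stood at 344, 301, 279, 277 and 251 CPM after PBS and at 1258, 1263 and 1177 CPM after TNFa, a 4.24-fold rise with a narrow spread (log2 fold change 2.08, SE 0.10, adjusted p = 5.02e-11). Nfkbie rose by 1.41 (adjusted p = 3.29e-05), Nfkbiz by 0.93 (adjusted p = 0.00078) and Bcl3, an atypical family member that acts in the nucleus, by 2.89 (adjusted p = 2.44e-08). Nfkbib was the fifth called as raised of the 6 IkB genes tested, but the call (adjusted p = 0.0418) was lost in 7 of the 8 fits that left out 1 library, with an adjusted p of up to 0.231. Of the 9 ubiquitin brakes tested, 3 were raised (33.3%, against 3.6% of all genes tested). Tnfaip3, whose protein edits the ubiquitin chains that carry the signal, rose from 77.2, 70.7, 56.5, 61.5 and 32.1 CPM to 297, 356 and 357 CPM, again with no overlap (log2 fold change 2.49, SE 0.22, adjusted p = 1.61e-07). Its binding partners Tnip2 and Tnip1 rose by 1.27 (adjusted p = 6.79e-05) and 0.76 (adjusted p = 0.00383), while Cyld, a deubiquitinase, had no call (log2 fold change 0.28, adjusted p = 0.222).

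**Figure D2:**
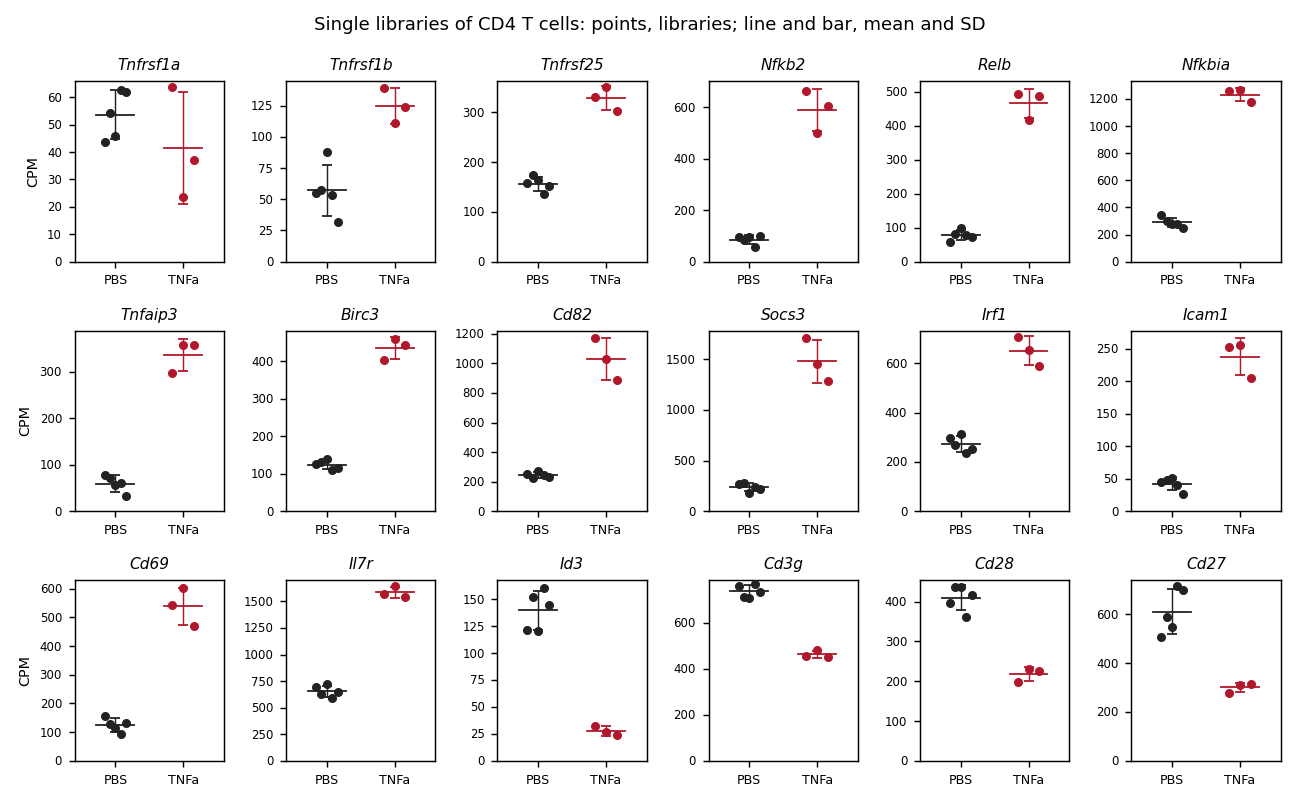
Level in CPM (vertical, from 0) of 18 genes in single libraries of CD4 T cells after PBS (black, 5 libraries) and TNFa (red, 3 libraries), with the mean and SD of each group. The groups overlap only for Tnfrsf1a; Id3, Cd3g, Cd28 and Cd27 lie lower after TNFa and the other 13 genes lie higher.

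The promoter of Nfkbia is shown as the example of an NF-kB target, beside that of the adhesion gene Icam1. Both are the 250 bases before the transcription start in RefSeq on GRCm38.p6, 5′ to 3′ on the gene's strand, with matches to the searched motifs in capitals. No annotated exon overlaps either window. Nfkbia lies on the minus strand at chr12:55492648-55492897, with matches to the kB letters GGANTTTCC that begin 178 and 29 bases before the start and a match to the interferon response letters TTCNNTTTC that begins 53 bases before it. Icam1 lies on the plus strand at chr9:21015690-21015939, with a kB match 153 bases before the start and a match to the STAT letters TTCNNNGAA 42 bases before it. Both strands were searched: the Nfkbia match at 29 bases and the Icam1 kB match lie on the opposite strand and read GGAAATTCC here.
Nfkbia: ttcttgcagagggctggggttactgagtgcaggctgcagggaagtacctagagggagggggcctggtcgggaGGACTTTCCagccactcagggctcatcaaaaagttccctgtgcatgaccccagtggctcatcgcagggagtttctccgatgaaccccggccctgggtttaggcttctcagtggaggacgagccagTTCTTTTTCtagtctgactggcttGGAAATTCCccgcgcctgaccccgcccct
Icam1: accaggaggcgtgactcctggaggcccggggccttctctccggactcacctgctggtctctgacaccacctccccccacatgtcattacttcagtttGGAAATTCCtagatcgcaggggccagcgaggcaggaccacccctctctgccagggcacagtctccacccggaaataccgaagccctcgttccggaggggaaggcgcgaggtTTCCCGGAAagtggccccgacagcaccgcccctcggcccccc

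Icam1 encodes the ligand of the integrin LFA-1. It stood at 45.2, 48.4, 51.7, 40.9 and 26.8 CPM after PBS and at 252, 255 and 205 CPM after TNFa (log2 fold change 2.47, SE 0.20, adjusted p = 3.88e-08), with every TNFa library far above the PBS range. On both strands of the 250-base windows, the kB letters were found for 15 of the 341 raised genes with a promoter entry (4.4%), for 1 of 270 lowered genes (0.37%) and for 113 of all 8831 tested genes with an entry (1.28%). The STAT letters were found for 13.2% of raised, 6.3% of lowered and 7.2% of all tested genes. The interferon response letters were found for 15.2%, 8.15% and 7.45%. Genes with several starts have several windows, 1.34 on average for raised, 1.46 for lowered and 1.27 for all tested genes. Over genes with a single window the shares were 4.96%, 0.515% and 1.04% for the kB letters, 10.3%, 2.58% and 6.05% for the STAT letters, and 14.1%, 5.67% and 6.26% for the interferon response letters. A match is a stretch of letters and not a measured binding site. Only these letters were searched, so a window without a match may still hold another form of a site.

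Genes of the JAK-STAT pathway rose as well. STAT proteins carry cytokine signals to the nucleus, and SOCS proteins, induced by them, inhibit the receptors. Socs3 stood at 268, 275, 177, 237 and 219 CPM after PBS and at 1707, 1457 and 1282 CPM after TNFa, 6.29-fold higher with no overlap (log2 fold change 2.65, SE 0.17, adjusted p = 9.79e-10). Socs1 and Cish each rose by 2.00 (adjusted p = 8.03e-06 and 0.000291). Among the STAT genes, Stat2 rose by 1.32 (adjusted p = 1.91e-06) and Stat3 by 0.96 (adjusted p = 2.28e-06). Of 15 SOCS, STAT and Janus kinase genes tested, 10 were raised and none was lowered (median log2 fold change 0.86, against −0.001 over all genes). Of the 20 listed STAT3 targets tested, 16 were raised and none was lowered (median 0.95). They included Junb, an AP-1 subunit, which rose from 169 to 229 CPM to 843, 789 and 752 CPM (log2 fold change 1.96, SE 0.15, adjusted p = 1.44e-08), and Tha1, a threonine aldolase, at 28.1 to 63.5 CPM after PBS and 146, 175 and 206 CPM after TNFa (log2 fold change 2.09, SE 0.19, adjusted p = 1.89e-07). Of the raised STAT3 targets, only Etv6, Flot1, Skap2 and Tha1 stand on no other list. Batf, Bcl3, Fos, Hif1a, Il21r, Il4ra, Il6st, Junb, Mcl1, Pim1, Socs3 and Stat3 are counted on other lists too, so these counts are not separate. Without the second TNFa library 13 STAT3 targets were raised.

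Many interferon-responsive genes were raised. Of 24 genes typically induced by interferon gamma, 19 were raised and none was lowered (median log2 fold change 1.04). Of 35 type I interferon-stimulated genes, 18 were raised and none was lowered (median 0.72). Without the first or the third TNFa library the 19 became 17 and the 18 became 14. The type I calls lost in both cases were those of Ifi35, Irf9, Slfn5 and Slfn8. Irf1, a transcription factor that NF-kB and interferon signalling are known to induce, stood at 299, 267, 315, 236 and 253 CPM after PBS and at 708, 654 and 590 CPM after TNFa, with no overlap (log2 fold change 1.25, SE 0.12, adjusted p = 5.8e-07). The guanylate-binding protein genes Gbp4 and Gbp2 rose by 1.46 (adjusted p = 2.37e-07) and 1.85 (adjusted p = 2.86e-06). Reads of these near-identical paralogs may be split in the counting, and their single values are uncertain. Parp14, an ADP-ribosyltransferase, rose from 91.2 to 136 CPM to 418, 384 and 405 CPM (log2 fold change 1.84, SE 0.12, adjusted p = 2.04e-09), and its relative Parp9 rose by 1.15 (adjusted p = 5.26e-07). Zbp1, a sensor of nucleic acids, and Oas2, an oligoadenylate synthetase, rose by 1.11 (adjusted p = 1.37e-05) and 1.38 (adjusted p = 9.2e-05). Isg15, the ubiquitin-like protein of the interferon response, was low, at 19.1, 22.6, 23.2, 6.69 and 19.5 CPM after PBS, and rose to 49.1, 51.7 and 66.4 CPM (adjusted p = 0.000496).

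The promoters of Irf1 and Isg15 show the other searched letters, in windows of the same length, build and orientation that overlap no annotated exon. Irf1 lies on the plus strand at chr11:53769764-53770013, with a STAT match that begins 90 bases before the start. This window holds no match to the searched kB letters, and other forms of a kB site were not searched. Another RefSeq start of Irf1 has its window at chr11:53770223-53770472, which overlaps an exon of Irf1 and holds no match. Isg15 lies on the minus strand at chr4:156200819-156201068, with 3 overlapping interferon response matches that begin 78, 72 and 66 bases before the start and a kB match 41 bases before it. All of these Isg15 matches lie on the strand opposite to the printed one.
Irf1: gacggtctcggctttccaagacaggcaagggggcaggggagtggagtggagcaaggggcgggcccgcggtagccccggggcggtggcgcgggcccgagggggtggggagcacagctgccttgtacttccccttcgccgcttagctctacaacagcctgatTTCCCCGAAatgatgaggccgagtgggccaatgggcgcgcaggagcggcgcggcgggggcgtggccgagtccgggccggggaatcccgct
Isg15: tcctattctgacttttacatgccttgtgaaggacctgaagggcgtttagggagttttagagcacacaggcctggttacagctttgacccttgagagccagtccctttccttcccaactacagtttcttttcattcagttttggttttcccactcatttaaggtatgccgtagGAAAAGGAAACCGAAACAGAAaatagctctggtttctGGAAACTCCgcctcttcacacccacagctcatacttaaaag

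The machinery that loads peptides on MHC class I was raised in part. Of 14 genes, 7 were raised (50%, against 3.6% of all genes tested) and none was lowered (median log2 fold change 0.39). Nlrc5, Psmb10, Tap1 and Tapbp are also counted among the raised interferon gamma genes, so the 2 counts are not separate. The heavy chain gene H2-K1 was among the most abundant transcripts of these cells. It stood at 5336, 5489, 5531, 4892 and 5087 CPM after PBS and at 6792, 6721 and 6702 CPM after TNFa, a small rise with no overlap (log2 fold change 0.36, SE 0.065, adjusted p = 0.000889). B2m, the light chain, rose by 0.39 (adjusted p = 0.000859). Tap1, a subunit of the peptide transporter, and Tapbp, the bridge between transporter and heavy chain, rose by 0.86 (adjusted p = 3.6e-06) and 0.89 (adjusted p = 1.71e-06). Nlrc5, the transactivator of these genes, rose by 0.80 (adjusted p = 8.7e-05).

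Genes known to respond to glucocorticoids had the highest median of the 35 lists, 1.20 on the log2 scale, with 10 of 14 raised and 1 lowered (2 without the fifth PBS library). Without the second TNFa library 8 were raised, as the calls of Dusp1 and Zfp36 were lost. The call of Zfp36 was lost in 6 of the 8 fits without 1 library. Fkbp5, a chaperone partner of the glucocorticoid receptor, stood at 30.0, 44.1, 32.0, 27.0 and 24.2 CPM after PBS and at 130, 152 and 129 CPM after TNFa (log2 fold change 2.11, SE 0.18, adjusted p = 5.52e-08). Tsc22d3, which encodes the leucine zipper protein GILZ, rose from 417, 439, 494, 493 and 579 CPM to 987, 1140 and 1048 CPM (log2 fold change 1.13, SE 0.10, adjusted p = 1.11e-07). Both genes were higher in each TNFa library than in any PBS library. Sgk1, a kinase of ion transport, rose by 1.66 (adjusted p = 1.89e-08) and Per1, a clock gene, by 1.34 (adjusted p = 4.48e-05); no other gene of the 14 clock genes tested was called. The list also holds Nfkbia and Il7r, which other pathways induce, and the lowered member was Smap2, an adaptor of vesicle traffic (log2 fold change −0.58, adjusted p = 0.00387). Of the raised members, Ddit4, Dusp1, Il7r, Nfkbia, Per1 and Zfp36 are counted on other lists too, so these counts are not separate.

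Stress kinase regulators rose from low levels. Of 13 MAPK phosphatases and regulators tested, 8 were raised and none was lowered (median log2 fold change 1.06). The 8 became 5 without the second or the third TNFa library: the calls of Dusp4 and Dusp10 were lost in both cases, with that of Dusp1 in the first and that of Gadd45b in the second. Gadd45g, an activator of the stress kinase cascade, stood at 8.79, 5.95, 1.07, 4.96 and 1.66 CPM after PBS and at 132, 120 and 115 CPM after TNFa, 26.3-fold higher (SE 0.35 on the log2 scale, adjusted p = 1.14e-08). Map3k8, a kinase held by the NF-kB precursor encoded by Nfkb1, stood at 1.49 to 9.61 CPM after PBS and rose to 61.2, 70.5 and 56.1 CPM (log2 fold change 3.71, SE 0.42, adjusted p = 4.09e-06). For both genes the lowest TNFa library lay several fold above the highest PBS library. Mapkapk2, the kinase below p38 that stabilises inflammatory transcripts, rose by 2.23 (adjusted p = 1.48e-07), and the phosphatase gene Dusp2 rose by 1.72 (adjusted p = 4.47e-05). Among 20 immediate-early and AP-1 genes tested, 9 were raised and 1 was lowered; they included Batf (log2 fold change 1.86, adjusted p = 3.54e-06) and Jun (2.05, adjusted p = 0.00048). Btg2, an antiproliferative gene, was the lowered one, at 397 to 485 CPM after PBS and 238 to 283 CPM after TNFa (log2 fold change −0.70, SE 0.10, adjusted p = 0.000105). Of 14 mRNA decay regulators, 5 were raised and 1, Btg2, was lowered. The raised were 3 without the first, the second or the third PBS library or the first or the second TNFa library, since the calls of Btg1 and Zfp36 were lost in each of those fits (adjusted p up to 0.243 and 0.25). Those raised in every fit included Arid5a, which stabilises cytokine transcripts (log2 fold change 1.44, adjusted p = 9.45e-09), and Zc3h12d (1.24, adjusted p = 4.53e-06).

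Of 22 cytokine receptor genes tested, 12 were raised and none was lowered (median log2 fold change 0.67). Il7r, the receptor that keeps naive T cells alive, stood at 690, 624, 723, 592 and 652 CPM after PBS and at 1566, 1646 and 1543 CPM after TNFa, with every TNFa library far above the PBS range (log2 fold change 1.27, SE 0.11, adjusted p = 1.06e-07). Il27ra, the receptor chain specific to interleukin-27, rose by 1.01 (adjusted p = 3.23e-06), Il21r by 0.84 (adjusted p = 1.61e-05), Il4ra by 0.68 (adjusted p = 0.000101) and Ifnar1, a chain of the type I interferon receptor, by 0.86 (adjusted p = 0.000158). Receptor chains that were barely counted after PBS appeared too. Il18rap, an accessory chain of the interleukin-18 receptor, had 7 counts over the 5 PBS libraries and 88 over the 3 TNFa libraries, a ratio of 21.1 per library size (95% interval 9.82 to 54.0, counting error only). Its fitted log2 fold change of 4.28 became 5.54 without the fourth PBS library, which held 5 of the 7 counts. Kit, the stem cell factor receptor, had 1, 1, 0, 1 and 0 counts after PBS and 39, 27 and 58 after TNFa, a ratio of 69.3 (95% interval 23.2 to 341, counting error only). Kit is a mast cell gene, and the other 4 mast cell markers (Cpa3, Mcpt4, Cma1 and Tpsb2) did not pass the filter on low counts: these 4 summed to 0.994 to 2.98 CPM after PBS and to 1.35 to 2.37 CPM after TNFa, and Kit alone stood at 0 to 0.248 and at 8.40 to 15.6 CPM.

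Activation and costimulation genes split evenly, with 7 of 22 raised and 7 lowered. Cd69, the early activation antigen that retains lymphocytes in tissue, stood at 156, 130, 115, 92.2 and 134 CPM after PBS and at 545, 601 and 472 CPM after TNFa (log2 fold change 2.10, SE 0.13, adjusted p = 9.17e-10). Tnfrsf18, the costimulator GITR, rose by 1.03 (adjusted p = 9.74e-06). The others raised were Tnfrsf4, Tnfrsf9, Tnfsf8, Slamf1 and Il2rg, of which Tnfrsf9 and Slamf1 lost their calls in 4 and 1 of the 8 fits without 1 library (adjusted p up to 0.122 and 0.0646). Cd27, Cd28, Cd40lg, Cd44, Cd5, Cd6 and Slamf6 were lowered, of which Cd44 and Slamf6 lost their calls in 7 and 4 of those fits (adjusted p up to 0.212 and 0.148). Cd27, a costimulator of the TNF receptor family, stood at 505, 589, 547, 717 and 697 CPM after PBS and at 279, 309 and 314 CPM after TNFa (log2 fold change −1.02, SE 0.12, adjusted p = 6.27e-06). Cd28 stood at 397, 436, 438, 362 and 417 CPM and fell to 199, 232 and 227 CPM (log2 fold change −0.91, SE 0.13, adjusted p = 4.81e-05). In both, each TNFa library lay well under each PBS library. Cd40lg, the helper ligand, fell by 1.38 on the log2 scale (adjusted p = 9.04e-06), and Cd5, a brake on receptor signalling, fell by 0.97 (adjusted p = 8.11e-06).

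The T cell receptor complex was lowered in part, with 7 of 25 receptor and proximal signalling genes lowered and 2, Bcl10 and Ptpn22, raised (median log2 fold change −0.27). Without 1 library 5 to 8 were lowered; 1 was raised without the first or the second PBS library or the first or the third TNFa library, and none without the second TNFa library. Cd3g stood at 760, 714, 708, 769 and 732 CPM after PBS and at 454, 482 and 452 CPM after TNFa (log2 fold change −0.67, SE 0.088, adjusted p = 2.23e-05). Cd3d fell by 0.47 (adjusted p = 0.00173), whereas Cd3e stood at 569 to 715 CPM after PBS and at 550 to 663 CPM after TNFa with no call (adjusted p = 0.648). Themis, a scaffold of receptor signalling, fell by 1.01 (adjusted p = 3.29e-05) and the adaptor Lcp2 by 0.61 (adjusted p = 0.000427). The kinase gene Lck was also called (log2 fold change −0.40, adjusted p = 0.0208), but not without the first or the third TNFa library (adjusted p = 0.0887 and 0.117).

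With all libraries, adhesion genes had the largest lowered share of the 35 lists, 8 of 15 against 2.96% of all genes tested, with 1 raised, which was Icam1 (median log2 fold change −0.36). The 8 became 4 without the third TNFa library, where the calls of Cd2, Cd44, Cd48 and Itgb2 were lost (adjusted p from 0.0621 to 0.227), and 5 without the first TNFa or the fourth PBS library. Selplg, the selectin ligand, stood at 1010, 982, 1036, 1034 and 1052 CPM after PBS and at 710, 771 and 678 CPM after TNFa, with no overlap and little spread (log2 fold change −0.51, SE 0.079, adjusted p = 0.000154). The integrin chains Itga4 and Itga6 fell by 0.93 (adjusted p = 0.00017) and 1.02 (adjusted p = 0.00108), and Icam2 fell by 0.63 (adjusted p = 0.00407). Of the egress genes, S1pr4 fell by 0.83 (adjusted p = 1.61e-05). S1pr1, the main egress receptor, stood at 816 to 970 CPM after PBS and at 716 to 769 CPM after TNFa, and the groups did not overlap but the test was not passed (log2 fold change −0.27, SE 0.081, adjusted p = 0.0536). S1pr1 was called as lowered by DESeq2 (adjusted p = 0.0145) and by edgeR's test without the first PBS library (adjusted p = 0.0446). Ccr7, the lymph node chemokine receptor, was called as lowered (log2 fold change −0.34, adjusted p = 0.00752), except when the third TNFa library was left out (adjusted p = 0.0819).

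Regulators of the naive state moved in both directions, with 6 of 25 lowered (24%) and 4 raised (16%), against 2.96% and 3.6% of all genes tested. Id3, an inhibitor of E proteins, stood at 121, 152, 120, 161 and 144 CPM after PBS and at 32.5, 26.6 and 24.0 CPM after TNFa, a 5.01-fold fall (SE 0.20 on the log2 scale, adjusted p = 6.3e-08). Klf3 fell by 1.06 (adjusted p = 0.000195). Satb1, a chromatin organiser, rose by 0.69 (adjusted p = 4.53e-06). The partner factors Lef1 and Tcf7 went opposite ways: Lef1 stood at 893 to 1122 CPM after PBS and at 634 to 656 CPM after TNFa (log2 fold change −0.60, adjusted p = 0.000439), and Tcf7 at 1460 to 1677 and at 1941 to 2233 CPM (log2 fold change 0.36, adjusted p = 0.00222). Of 14 lineage factors tested, Ikzf3 rose by 1.24 (adjusted p = 0.000158), Ikzf4 rose by 1.29 (adjusted p = 0.00409) and Gata3 fell by 1.03 (adjusted p = 0.000167). The 7 regulatory T cell markers summed to 134 to 354 CPM after PBS and to 322 to 404 CPM after TNFa; 2 of the 7, Tnfrsf18 and Ikzf4, were raised, while Foxp3 stood at 12.9 to 115 CPM after PBS and at 30.4 to 66.4 CPM after TNFa (adjusted p = 0.991). Their part in the rises of Tnfrsf18 and Ikzf4 was not tested.

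Ribosomal protein, respiratory chain and ribosome biogenesis genes stayed near the background. None of 28 cytosolic ribosomal protein genes and none of 24 nuclear respiratory chain genes was called in edgeR's test or by DESeq2. An unadjusted p under 0.05 was found for 5 of the former (1 higher, 4 lower) and for 2 of the latter (both lower). Of 25 ribosome biogenesis genes, 1 was lowered. Polr1a, a subunit of RNA polymerase I, was that gene (log2 fold change −0.53, adjusted p = 0.0168), and it is among the 45 of 204 called list, marker and rule-named genes whose call was lost in at least 1 of the 8 fits without 1 library. Of 8 heat shock genes, 3 were lowered (37.5%, against 2.96% of all genes tested). Only 1 was lowered when the first, the second or the third TNFa library was left out. Hsph1, a co-chaperone, stood at 168, 256, 336, 108 and 356 CPM after PBS and at 86.4, 89.2 and 78.5 CPM after TNFa, so that the PBS libraries spread widely above a tight TNFa group (log2 fold change −1.53, SE 0.34, adjusted p = 0.00504). The calls of Hspa8 and Hspd1 were lost in 3 and 7 of the 8 fits without 1 library (adjusted p up to 0.132 and 0.243). Of 12 BCL2 family and survival genes, Mcl1 and Pmaip1 were raised. Mcl1, a survival factor, rose by 0.62 (adjusted p = 0.0169), a call lost without the second or the third TNFa library (adjusted p = 0.0756 and 0.0914). Pmaip1, which antagonises it, had 4 counts over the PBS libraries and 32 over the TNFa libraries, and its call was lost in 7 of the 8 fits (adjusted p up to 0.167). None of the 3 chemokine and cytokine ligand genes that passed the filter on low counts, of 22 listed, was called by either tool, and none had an unadjusted p under 0.05. The 14 lists with a raised and no lowered member in edgeR's test held 198 tested members, with genes on several lists counted on each. DESeq2 lowered none of these, and 2 had a lower level at an unadjusted p under 0.05 in edgeR's test. Both tools used the same counts and the lists were picked by edgeR's calls, so this is no separate check. The lists were drawn up with earlier results of these data known, so their counts describe these samples and are not independent evidence.

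**Figure D3:**
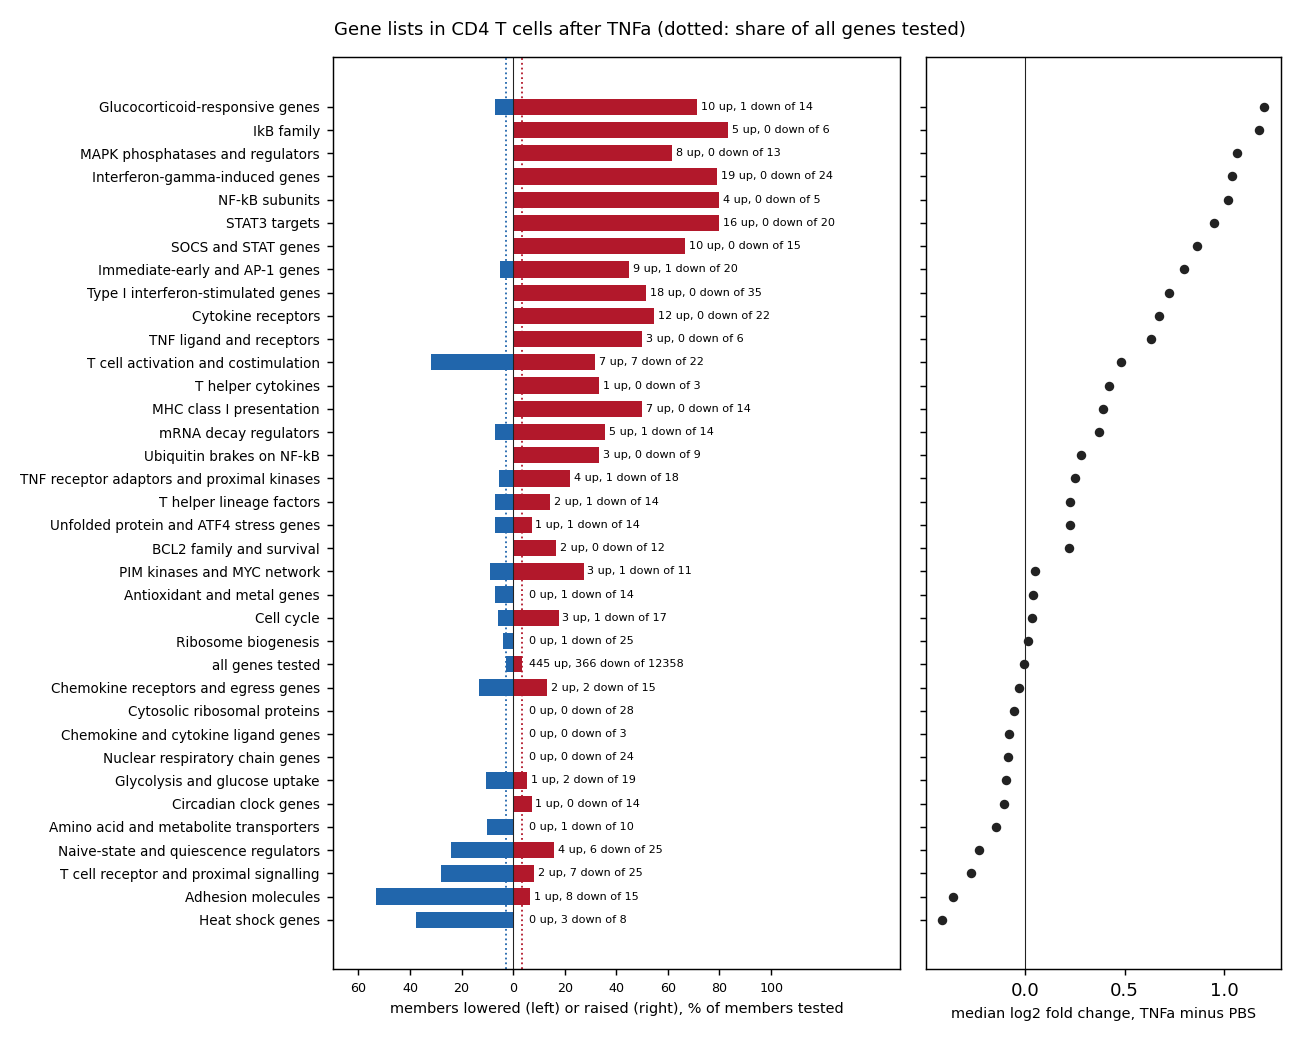
Left, the percentage of tested members lowered (blue, to the left) and raised (red, to the right) in each gene list in CD4 T cells after TNFa, with dotted lines at the shares over all genes tested, 2.96% and 3.6%. Right, the median log2 fold change of each list. Lists run from glucocorticoid-responsive genes (median 1.20) to heat shock genes (median −0.41), and all genes tested lie at −0.001.

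The gene raised most among those with at least 20 CPM was Frmd4b, a membrane scaffold gene. It stood at 6.11, 3.97, 1.33, 0.495 and 0.331 CPM after PBS and at 65.3, 83.7 and 61.2 CPM after TNFa, 27.2-fold higher (SE 0.41 on the log2 scale, adjusted p = 7.08e-08). Its log2 fold change of 4.77 became 5.43 without the first PBS library. Cd82, a tetraspanin, was among the 4 genes with the smallest adjusted p: it stood at 255, 225, 272, 243 and 231 CPM after PBS and at 1174, 1029 and 885 CPM after TNFa (log2 fold change 2.07, SE 0.11, adjusted p = 5.02e-11). Vars, a valyl-tRNA synthetase gene, rose from 202, 198, 178, 148 and 189 CPM to 699, 642 and 785 CPM (log2 fold change 1.95, SE 0.11, adjusted p = 2.19e-10), and Mxd1, a MAX partner that opposes MYC, from 32.8 to 66.9 CPM to 322, 449 and 285 CPM (log2 fold change 2.67, adjusted p = 9.5e-09). Apobec3, an antiviral deaminase, and Ly6a, the surface protein Sca-1, rose by 2.19 (adjusted p = 8.49e-11) and 2.15 (adjusted p = 5.02e-11). In all of these, no TNFa library came near the PBS range.

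Of the lowered genes with at least 20 CPM, Cdc25b had the largest fold. This cell-cycle phosphatase gene stood at 76.2, 62.8, 98.7, 26.8 and 66.2 CPM after PBS and at 6.03, 8.51 and 10.8 CPM after TNFa (log2 fold change −2.98, SE 0.54, adjusted p = 0.000841). Selenop, a selenium transport protein, gave one of the largest falls in level, from 1002, 793, 944, 827 and 797 CPM to 322, 344 and 305 CPM, with the groups far apart (log2 fold change −1.43, SE 0.10, adjusted p = 1e-08). Rsrp1, a splicing-related gene, and Tmsb4x, which sequesters actin, fell by 0.76 (adjusted p = 2.19e-05) and 0.58 (adjusted p = 0.00214). Sesn1, a stress-induced inhibitor of growth signalling, fell by 1.37 (adjusted p = 3.62e-06), and Bcl9l, a beta-catenin cofactor, fell by 1.66 (adjusted p = 9.42e-06). Ighm, the immunoglobulin mu gene, stood at 864 to 977 CPM after PBS and at 552 to 592 CPM after TNFa (log2 fold change −0.66, adjusted p = 7.9e-05). It made up nearly all of the 9 B cell markers, which summed to 880 to 985 CPM after PBS and to 561 to 600 CPM after TNFa. No other B cell marker was called.

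Against IL1b at the same dose and time, TNFa differed in 89 of 12358 genes (0.72%), of which 66 were higher after TNFa (0.534%) and 23 lower (0.186%); 1033 genes (8.36%) had an unadjusted p under 0.05. Against IL6 it differed in 354 genes (2.86%), 242 higher (1.96%) and 112 lower (0.906%), with 1569 genes (12.7%) at an unadjusted p under 0.05. The 3 cytokines share the PBS libraries, so their responses are given side by side and the direct contrasts carry the tests. The direct contrasts in turn share the TNFa libraries with each other and with the contrast against PBS. A high value in those libraries raises a gene in each contrast, so the counts that combine contrasts are not independent. Of the 445 genes raised by TNFa, 49 were higher and 6 lower than after IL1b, 177 were higher and 1 lower than after IL6, and 47 were higher than after both. Of the 366 lowered genes, 7 were lower and 2 higher than after IL1b, 73 were lower and 1 higher than after IL6, and 5 were lower than after both. These counts lean on single libraries. The number that differed from IL1b was 34, 54 and 47 without the first, the second and the third TNFa library and 36 and 55 without the second and the third IL1b library. The number that differed from IL6 was 215, 221 and 233 without the first, the second and the third TNFa library and 233 without the third IL6 library. Of the 47 genes, 18 kept both calls in every such fit.

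Those 18 genes held 4 NF-kB and IkB genes. Nfkb2 stood at 165, 104 and 74.6 CPM in the 3 IL1b libraries and at 69.4, 80.9 and 47.7 CPM in the 3 IL6 libraries. Of these, 2 IL1b libraries lay above the PBS range and none came near the 500 to 662 CPM after TNFa. The direct differences were 2.36 on the log2 scale against IL1b (SE 0.25, adjusted p = 1.62e-05) and 3.16 against IL6 (SE 0.26, adjusted p = 1.15e-07). Relb stood at 102, 71.7 and 87.0 CPM after IL1b and 31.5, 70.2 and 45.5 CPM after IL6 (direct differences 2.42, adjusted p = 4.62e-06, and 3.25, adjusted p = 3.2e-08). Nfkbia was also raised by IL1b, to 711, 616 and 587 CPM, and TNFa exceeded that by 0.95 (SE 0.12, adjusted p = 0.000173). Nfkbie exceeded its level after IL1b by 1.67 (adjusted p = 0.000366) and after IL6 by 1.76 (adjusted p = 5.41e-05). Tnfaip3 and Tnfrsf25 were higher than after IL1b by 1.64 (adjusted p = 0.00186) and 0.96 (adjusted p = 0.00292).

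Further members of the 18 act next to the NF-kB pathway or at the surface. Ikbke, an IkB kinase relative, stood at 458, 562, 605, 489 and 384 CPM after PBS and at 1235, 1206 and 1024 CPM after TNFa, and differed from IL1b by 1.37 (adjusted p = 0.000344) and from IL6 by 2.08 (adjusted p = 4.34e-07). Tank, a TRAF partner, differed from IL1b by 1.53 (adjusted p = 0.000173). Cd82 stood at 305, 260 and 328 CPM after IL1b and at 282, 270 and 242 CPM after IL6, under every TNFa library (direct differences 1.79, SE 0.12, adjusted p = 5.08e-08, and 1.96, SE 0.13, adjusted p = 5.22e-09). Gsap, a gene of amyloid processing, stood at 38.8, 36.3 and 29.6 CPM after IL1b and at 149, 130 and 128 CPM after TNFa (direct difference 1.96, adjusted p = 0.000143). Cyba and Ncf4, subunits of the phagocyte oxidase, exceeded IL1b by 0.87 (adjusted p = 0.00155) and 1.33 (adjusted p = 0.00306). H2-K1, Ifnar1 and Il2rg, the common cytokine receptor chain, exceeded IL1b by 0.45 (adjusted p = 0.00283), 0.96 (adjusted p = 0.00246) and 0.65 (adjusted p = 0.00155). Med11, Peak1 and Sdhaf1 complete the set.

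**Figure D4:**
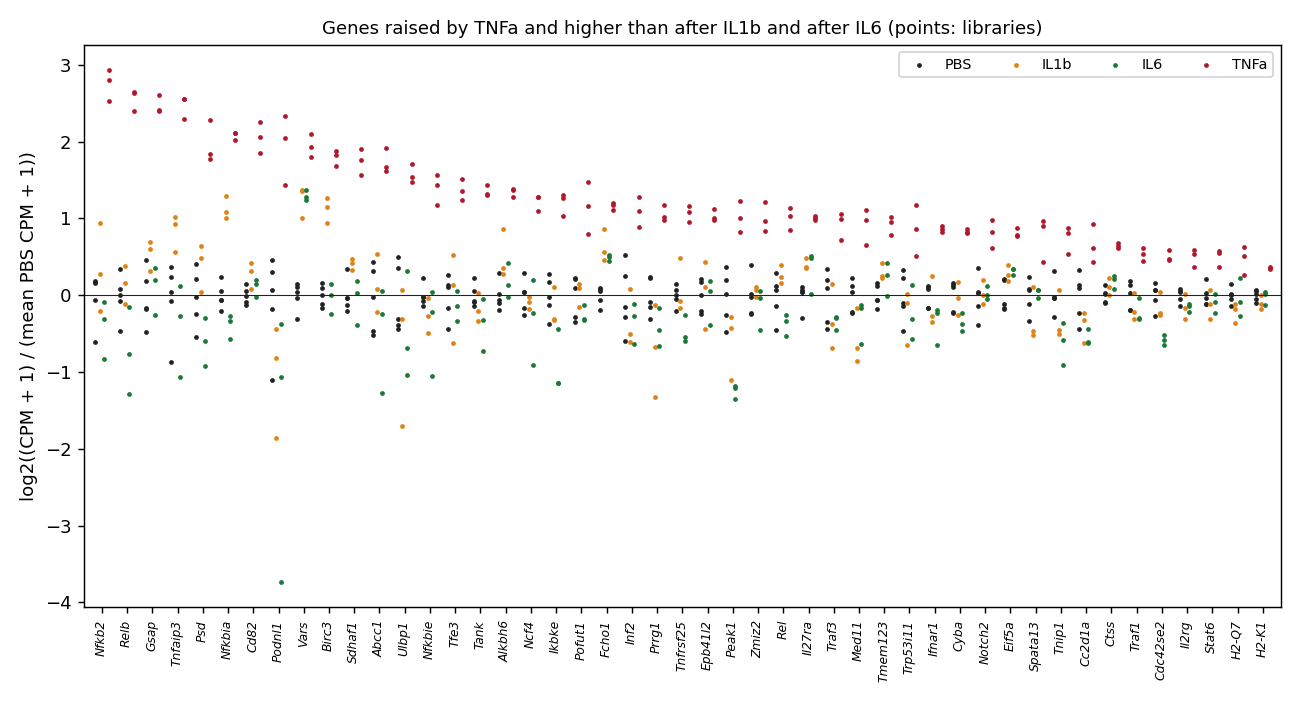
For the 47 genes raised by TNFa and higher than after both IL1b and IL6 (horizontal, ordered by the log2 fold change of TNFa against PBS), log2 of the level in single libraries over the PBS mean, with 1 CPM added (vertical). Black, orange, green and red points are PBS, IL1b, IL6 and TNFa libraries. The genes were chosen for lying higher after TNFa, so the figure shows how far the other groups lie from it: Vars, Birc3 and Nfkbia are the clearest that also lie above PBS after IL1b.

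Some genes were set apart by the other cytokines. Ltb, which TNFa left uncalled, stood at 549, 412 and 430 CPM after IL1b and at 543, 673 and 765 CPM after IL6, and TNFa exceeded them by 1.45 (SE 0.14, adjusted p = 5.39e-06) and 0.94 (SE 0.14, adjusted p = 0.000274). Irf1 stood at 154, 181 and 167 CPM after IL6, under its PBS range, and TNFa exceeded it by 1.96 (adjusted p = 3.2e-08). Socs3 stood at 2395, 2286 and 2285 CPM after IL1b, above the TNFa libraries, and the direct contrast was not called (−0.65, SE 0.19, adjusted p = 0.167). After IL6 it stood at 438, 548 and 907 CPM, and TNFa exceeded that by 1.23 (adjusted p = 0.000535). Il21r was lower after TNFa than after IL1b by a log2 difference of −0.67 (adjusted p = 0.00695), a call lost without the second IL1b or the third TNFa library (adjusted p = 0.0617 and 0.0681). Among the lowered genes, Id3 stood at 97.6, 95.8 and 102 CPM after IL6, and TNFa was lower by a log2 difference of −1.82 (SE 0.21, adjusted p = 1.11e-05), while after IL1b it stood at 20.7, 13.5 and 26.3 CPM with no difference called (adjusted p = 0.568). Cd40lg was likewise lower after TNFa than after IL6 by −1.18 (adjusted p = 0.000448), with no difference called from IL1b (adjusted p = 0.964).

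Regulatory T cells, another CD4 lineage, were used to ask which responses differ. In a joint fit, 23 of 13905 genes (0.165%) differed between the cell types in their response to TNFa, 16 with a higher (0.115%) and 7 with a lower (0.0503%) log2 fold change in CD4 T cells. In the same fit TNFa changed 713 genes in CD4 T cells (5.13%) and 773 in regulatory T cells (5.56%). For the difference, 1023 genes (7.36%) had an unadjusted p under 0.05. The count was 14, 15 and 12 without the first, the second and the third TNFa library of CD4 T cells, 14 without the third TNFa library and 36 without the second PBS library of regulatory T cells. The calls of 12 of the 23 genes held in each of the 16 fits without 1 library. Apobec3 rose by 2.20 in CD4 T cells, from a mean of 351 CPM to 1611 CPM, and by 1.13 in regulatory T cells, from a mean of 770 CPM to 1683 CPM (difference 1.07, SE 0.16, adjusted p = 0.00149). The cell types lay further apart in their PBS means than in their TNFa means. Frmd4b, Neb and AU020206, a long noncoding RNA, also had lower PBS levels in CD4 T cells: mean PBS levels were 2.49, 19.8 and 76.4 CPM in CD4 T cells and 32.8, 109 and 203 CPM in regulatory T cells. Their differences in log2 fold change were 3.04 (SE 0.51, adjusted p = 0.00289), 1.80 (SE 0.30, adjusted p = 0.00289) and 1.46 (SE 0.22, adjusted p = 0.00149). Ly6a had like PBS means, 189 and 219 CPM, and reached means of 844 CPM in CD4 T cells and 490 CPM in regulatory T cells (difference 0.99, SE 0.17, adjusted p = 0.00289).

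In the other direction, Dusp1, a MAPK phosphatase, gave the largest difference. Its CPM in the joint fit was 29.1, 21.0, 21.6, 22.4 and 21.9 after PBS and 36.6, 61.8 and 48.3 after TNFa in CD4 T cells, against 69.4, 93.0, 38.8, 55.6 and 48.3 after PBS and 505, 462 and 533 after TNFa in regulatory T cells. The log2 fold changes were 1.06 and 3.03 (difference −1.97, SE 0.30, adjusted p = 0.00149). Within CD4 T cells alone the rise of Dusp1 was called (adjusted p = 0.00362) except without the second TNFa library (adjusted p = 0.0592). Mif4gd, a translation factor partner, rose from a mean of 126 to 272 CPM in regulatory T cells and stood at means of 87.4 and 75.2 CPM in CD4 T cells, with no call there (difference −1.32, SE 0.23, adjusted p = 0.00316). Gramd3 rose in both, by 1.52 and 2.39 (difference −0.86, SE 0.16, adjusted p = 0.00547). Ccr7 had a log2 fold change of −0.34 in CD4 T cells and 0.36 in regulatory T cells (difference −0.70, SE 0.14, adjusted p = 0.0175). That call was lost without the third TNFa library of either cell type (adjusted p = 0.108 and 0.125). The call of Gpr183, an oxysterol receptor (difference −0.89, adjusted p = 0.0109), was lost in 3 of the 16 fits, with an adjusted p of up to 0.059. Myc was among the 7 as well, with means of 265 and 291 CPM in CD4 T cells and 343 and 837 CPM in regulatory T cells (difference −1.15, SE 0.24, adjusted p = 0.0299), a call lost in 5 of the 16 fits with an adjusted p of up to 0.14.

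**Figure D5:**
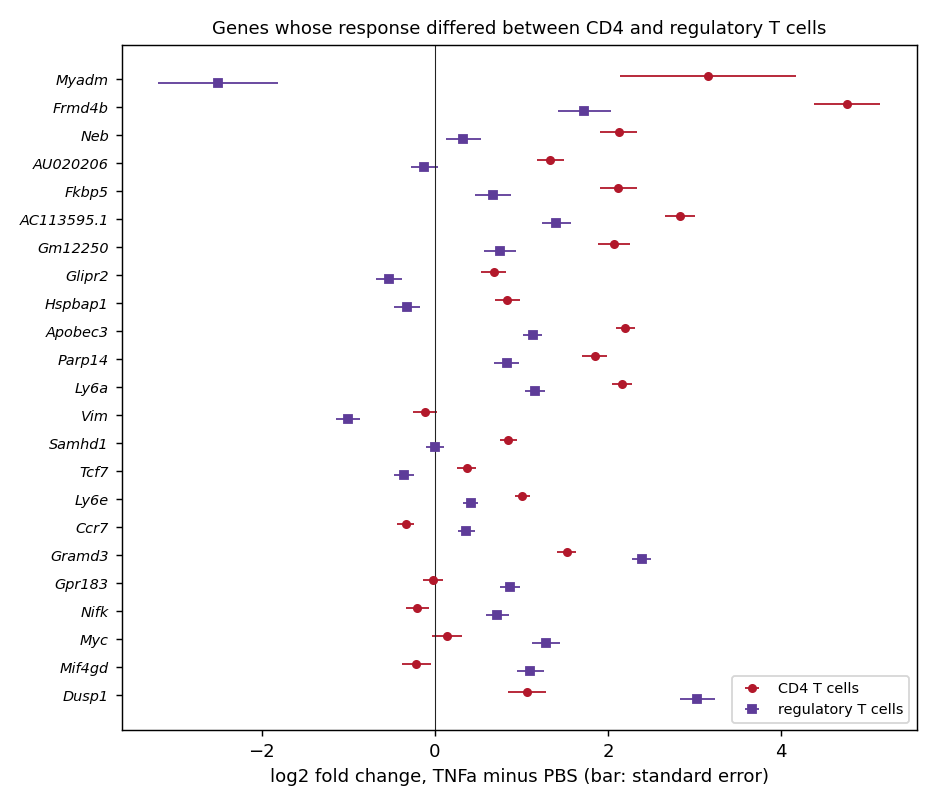
Log2 fold change after TNFa with its standard error (horizontal) in CD4 T cells (red circles) and regulatory T cells (purple squares) for the 23 genes (vertical) whose response differed between them. The genes were chosen for this difference; Apobec3, Ly6a and Gramd3 rose in both cell types, whereas AU020206, Neb and Samhd1 have an adjusted p under 0.05 in CD4 T cells and not in regulatory T cells.

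The same comparison was made with CD8 T cells, which had 2 TNFa libraries. Of 14918 genes, 2 differed in their response (0.0134%) and 730 had an unadjusted p under 0.05 (4.89%). In that fit TNFa changed 668 genes in CD4 T cells (4.48%) and 196 in CD8 T cells (1.31%). CD8 T cells had fewer libraries in both groups, so these counts do not compare the sizes of the responses. AC113595.1, a gene model known here only by its clone name, rose by 2.82 in CD4 T cells, to 238, 232 and 241 CPM from 29.0 to 38.5 CPM, and by 1.34 in CD8 T cells, to 113 and 94.8 CPM from 35.0 to 46.7 CPM (difference 1.48, SE 0.23, adjusted p = 0.0145). That call was lost without the third TNFa library of either cell type (adjusted p = 0.0647 and 0.105). Kit stood at 21.4 to 64.3 CPM in the PBS libraries and at 23.1 and 60.02 CPM in the TNFa libraries of CD8 T cells, where it was present without TNFa. The difference for Kit (5.98 on the log2 scale, SE 1.04, adjusted p = 0.0353) was lost in 12 of the 14 fits without 1 library, with an adjusted p of up to 0.16. Without the first TNFa library of CD8 T cells 13 genes differed, and without the third TNFa library of either cell type none did.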

How the data were processed

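RNA was counted per gene in 1000 sorted cells per library. The submitters' processing notes name STAR 2.7.3a, featureCounts and the build mm10. The featureCounts version, annotation, strand and multimapping settings were not stated in any source used here. The table the authors deposited holds unnormalized counts for each gene. T.4 libraries (14) were fitted together with edgeR 4.0.16 (R 4.3.3, limma 3.58.1): TMM scaling, the default filter on low counts (smallest count 10), which kept 12358 of 55011 genes (22.5%), quasi-likelihood tests and Benjamini-Hochberg adjustment over all genes tested, called at an adjusted p under 0.05. CPM are counts per 1000000 counts of the scaled library. SE is the log2 fold change over the root of F. The joint fits added all Treg or all T.8 libraries. The tests were checked on simulated data. DESeq2 1.42.0, other scalings and filters and leaving out each library were tried as alternatives. The libraries were taken by their labels, but this comparison and the gene lists were chosen with earlier results of these data known. Named genes were the TNF ligand and receptors, the 15 raised most and 10 lowered most, the 10 smallest adjusted p, the 5 largest rises and falls in CPM, up to 5 called genes per list and per sign of each contrast, and list members needed for their role. Cd28, Lck, Ighm, Isg15, Lef1, Tcf7, Myc, Kit, Il18rap, Cish, Per1, Smap2, Ikbke, Tank, Cyba, Ncf4, Il2rg, Med11, Peak1, Sdhaf1 and Samhd1 lie outside part of that rule and were named after their values were seen. Some genes that the rule names are not reported here. Promoters and their build came from RefSeq. Counting intervals (95%, exact) cover counting error only; reads are not independent molecules.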

Additional observations from a re-analysis of the deposited data

Results flagged for a closer look

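Among the 147 genes named by rule, 9 had 1 PBS library that stood apart from the other 4 by Dixon's gap, where chance marks about 1 group in 20. Rnf157 was at 9.33 CPM in the third PBS library and at 0.662 to 1.98 CPM in the others, and without that library its log2 fold change of 2.82 became 3.92. The fifth PBS library held 210 CPM of Cpm, 274 CPM of Il27ra, 1939 CPM of Ccr7 and 28.8 CPM of Zfp36l2, each outside the range of the other PBS libraries. The second held 748 CPM of Satb1, 66.7 CPM of Mxd4 and 168 CPM of Polr1a, and the first held 28.6 CPM of Dusp1.

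Responses to TNFa that differed between cell types were marked as well, each by the test of the difference in log2 fold change. Against regulatory T cells, the response in CD4 T cells was higher for Frmd4b by 3.04, Neb by 1.80, AU020206 by 1.46, Apobec3 by 1.07 and Ly6a by 0.99. It was lower for Dusp1 (−1.97), Mif4gd (−1.32), Gpr183 (−0.89), Gramd3 (−0.86) and Ccr7 (−0.70). Against CD8 T cells it was higher for Kit by 5.98 and for AC113595.1 by 1.48. The calls of Gpr183, Ccr7, Kit and AC113595.1 against these cell types were lost when single libraries were left out, as given with the results.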

How the results depend on the processing

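None of the 811 genes called against PBS turned in direction with DESeq2, with the replicate block or in the 8 fits without 1 library, and no called gene among the 147 named by rule turned against PBS under any alternative tried. The 811 calls against PBS became 814 with another scaling (RLE), 845 with the TNFa and PBS libraries alone and 1068 with DESeq2, which shared 806 of them. Testing for a change of at least 1.5-fold left 186 (143 raised, 43 lowered), as a stricter test must. Without the low-count filter 153 genes differed from IL1b, 92 in response from Treg and 56 from T.8. With DESeq2 these counts were 206, 86 and 12, and 557 genes differed from IL6. Within CD4 T cells the replicate numbers gave no sign of pairing across treatments. Same-numbered TNFa and PBS libraries correlated at 0.02, −0.02 and 0.02, and the highest of all pairs with PBS, IL1b or IL6 libraries was 0.034. Same-numbered libraries of different cell types were not compared. The joint fits treat them as independent, and whether they share an animal was not tested. With the replicate number as a block, 649 genes were called against PBS (375 raised, 274 lowered; 594 shared with the 811), 94 against IL1b and 401 against IL6, but 3 in response against Treg and 0 against T.8. Leaving out 1 library gave 550 to 766 calls against PBS (329 to 436 raised, 221 to 344 lowered), with 444 called in every such fit. It gave 34 to 81 calls against IL1b, 215 to 295 against IL6, 12 to 36 against Treg and 0 to 13 against T.8. Of the 147 named genes, 131 to 143 kept their side of the threshold under each setting but the scaling, where 147 did, and the 1.5-fold test, where 88 did. Genes with few counts, such as Kit and Pmaip1, are limited by depth.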
